A study of Mus musculus with 6 samples.

Results

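A set of 10 genes of the hepatic acute phase response was followed in whole livers after acute injury: the serum amyloid A genes *Saa1*, *Saa2*, *Saa3* and *Saa4*, the orosomucoid genes *Orm1*, *Orm2* and *Orm3*, and *Lcn2*, *Hp* and *Apcs*. These 10 genes were picked by name from the 24346 genes of the expression table, and all 10 passed the filter on low values, as did 11956 genes in all. The livers came from 8-week-old male C57/BL6 mice that had received 0.6 μl CCl4 per g body weight by intraperitoneal injection 24 hours earlier. Of the 6 livers, 3 were med23f/f controls, which carry floxed *Med23* alleles and are labelled wt, and 3 were med23Δli livers, labelled med23 ko, in which *Albumin*-cre removes the floxed part of *Med23* in hepatocytes while the other liver cells keep it. The series gives 3 livers per group, every liver was treated with CCl4, and no uninjured liver was measured, so the comparison is between genotypes and not between injured and healthy tissue.

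The acute phase response is the change in plasma proteins that the liver makes after injury or infection. Macrophages release interleukin-6, interleukin-1 and related cytokines, hepatocytes receive them through gp130 and interleukin-1 receptors, and STAT3, NF-κB and C/EBP factors raise transcription of secreted proteins within hours. SAA1 and SAA2 are the inducible serum amyloid A proteins that travel on high-density lipoprotein, SAA3 is an inducible form that macrophages and adipocytes also make, and SAA4 is known as the constitutive form. The orosomucoids (alpha-1-acid glycoproteins) bind drugs and lipids in plasma, lipocalin-2 (*Lcn2*) withholds iron from bacteria by binding siderophores, haptoglobin (*Hp*) captures free haemoglobin, and serum amyloid P (*Apcs*) is a pentraxin and the counterpart in mice of the C-reactive protein response in humans.

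Abundance is given in FPKM, fragments scaled for transcript length and for library size, which allows levels to be compared between genes. Groups were compared with limma on log2(FPKM + 0.1), and a gene was called up-regulated or down-regulated when its log2 fold change exceeded 1 in size and its Benjamini-Hochberg adjusted p was under 0.05. Read numbers cannot be had from FPKM, and the only error of a value is the spread between 3 mice. *Med23* itself had 2.97 to 4.14 FPKM in the controls and 2.91 to 3.40 FPKM in the livers labelled med23Δli (log2 fold change −0.11, adjusted p = 0.685, limma). This value covers all exons and all cells of the liver, it does not separate the groups, and every direction given here therefore rests on the labels. The hepatocyte marker *Alb* was at 12624 to 22376 FPKM in the 6 livers.

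Serum amyloid A was divided between its members. *Saa3* fell 4.42-fold and *Saa4* rose 3.80-fold in the livers labelled med23Δli, and these were the only 2 of the 10 genes to be called. *Saa1*, *Saa2*, *Orm1* and *Hp* were lower in every liver labelled med23Δli than in every control, but none of these 4 reached the adjusted threshold. With 1 of 10 genes called up against 4.45% of all tested genes, and 1 of 10 called down against 3.45% (2 of 10 in either direction against 7.90%), the counts alone do not set the genes apart. At an unadjusted p under 0.05 in limma 5 of 10 were lower, against 17.1% of tested genes. Of the 10 log2 fold changes, 9 were below 0, against 47.8% of all tested genes, and the median was −0.81 where the median over all tested genes was 0.02. In 5 of the 10 genes every liver labelled med23Δli lay below every control (20.4% of tested genes), in 1 gene every one lay above (23.3%), and in 4 the groups overlapped (43.7% of tested genes did not).

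The 10 transcripts together made up 5.55%, 5.85% and 10.2% of the summed FPKM in the controls and 1.68%, 3.69% and 5.12% in the livers labelled med23Δli. The groups did not overlap in this share. *Saa1* and *Saa2* alone made up 3.76%, 3.49% and 7.64% in the controls and 0.701%, 2.04% and 3.28% in the other group. The share thus follows a few abundant genes and not all 10. In the controls *Saa1* stood in place 3, 3 and 1 of all genes by FPKM, and in the livers labelled med23Δli in place 26, 6 and 2. By their mean in the controls, the order was *Saa1*, *Saa2*, *Hp*, *Orm1*, *Lcn2*, *Apcs*, *Saa3*, *Orm2*, *Saa4* and *Orm3*. Neighbours in this order whose control values overlapped were *Saa1* and *Saa2*, *Saa2* and *Hp*, *Lcn2* and *Apcs*, and *Apcs* and *Saa3*. In the other group *Saa3*, *Saa4* and *Orm2* overlapped with each other, with means of 104, 120 and 94.1 FPKM.

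**Figure D1:**
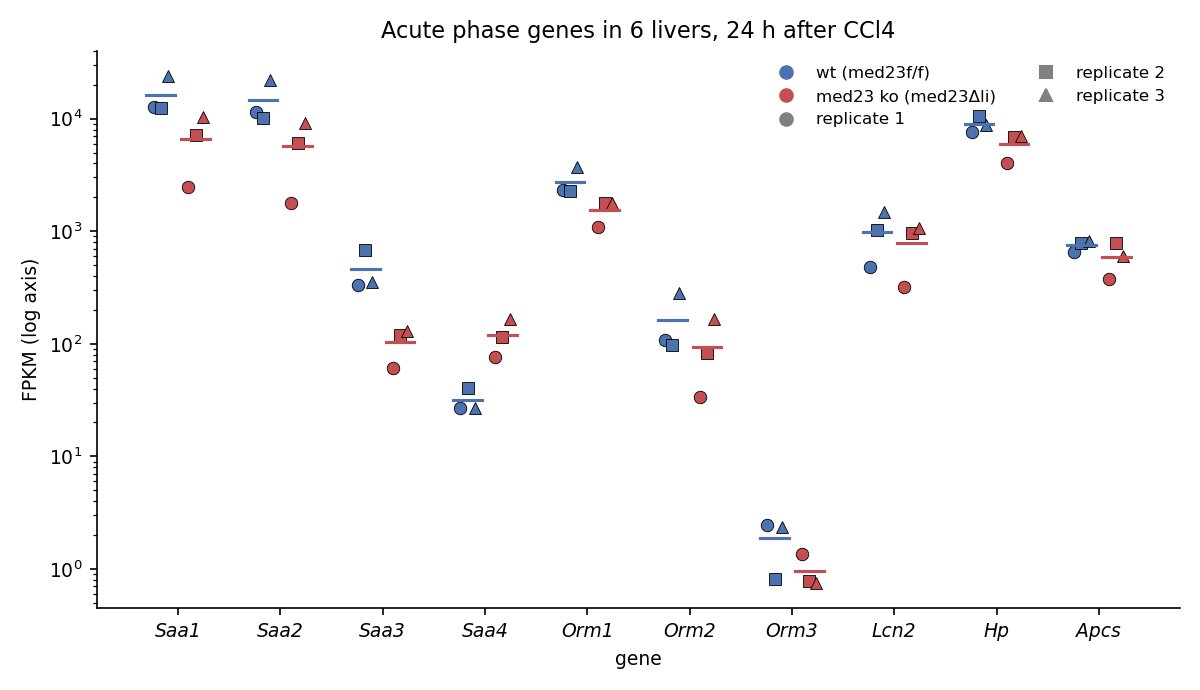
FPKM of the 10 acute phase genes (x axis) in each of 6 livers on a log axis (y axis), controls in blue and livers labelled med23Δli in red, with the marker shape giving the replicate number and the bar the group mean of 3 mice. *Saa3* is lower (61.2 to 129 against 333 to 687 FPKM) and *Saa4* higher (77.1 to 166 against 26.9 to 40.3 FPKM) in every liver labelled med23Δli, whereas *Orm2*, *Orm3*, *Lcn2* and *Apcs* overlap between groups.

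*Saa1* and *Saa2* are the inducible plasma forms. *Saa1* (ENSMUSG00000074115.5) occupies bases 46740497 to 46742980 of chromosome 7 (mm10, minus strand), and *Saa2* (ENSMUSG00000057465.5) on the plus strand from 46751790 to 46754313, so that the pair is transcribed away from each other. *Saa1* had 12620, 12478 and 23878 FPKM in the controls and 2472, 7174 and 10294 FPKM in the livers labelled med23Δli. Control replicate 3 was the highest and med23Δli replicate 1 the lowest of the 6, and the groups did not overlap. The means were 16325 ± 6541 and 6646 ± 3938 FPKM (SD, n = 3 each). On the log2 scale the difference was −1.45 ± 0.51 (SE; 95% interval −2.63 to −0.28), and the adjusted p of 0.0773 (limma) missed the threshold.

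*Saa2* had 11365, 10228 and 22009 FPKM in the controls and 1795, 6078 and 9095 FPKM in the livers labelled med23Δli, with the 6 livers in the same order as for *Saa1*. Its log2 fold change was −1.56 (standard error 0.57, adjusted p = 0.0874, limma). The ratio of *Saa1* to *Saa2* within a liver stayed between 1.08 and 1.38, and the log2 ratio differed between the groups by 0.11, with overlapping values (exact two-sided permutation p = 0.4). The coding parts of the 2 genes are 366 bases long each and 95.1% identical. Of the 460 stretches of 150 bases, the read length, in the *Saa1* transcript, 0 matched a *Saa2* transcript with 2 or fewer mismatches, and the closest differed at 5 bases, so whole reads could be told apart, while trimmed reads were not examined. The symbols of these 2 genes have also been exchanged in the past, and RefSeq lists each as a synonym of the other. Their sum does not depend on either point, and it went from 30859 ± 13030 to 12302 ± 7605 FPKM (SD, n = 3 each), or by −1.50 on the log2 scale (limma adjusted p 0.0831).

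*Saa3* (ENSMUSG00000040026.8; chromosome 7, minus strand, 46711998 to 46715700) is the form produced by macrophages and adipocytes as well as injured liver. It had 333, 687 and 354 FPKM in the controls and 61.2, 121 and 129 FPKM in the livers labelled med23Δli. The highest liver of the second group was below the lowest control by more than the whole spread of that second group. The means were 458 ± 198 and 104 ± 37.0 FPKM (SD, n = 3 each), a log2 difference of −2.14 ± 0.36 (SE; limma adjusted p 0.00847). The exact two-sided permutation test gave p = 0.1, the smallest that 3 against 3 livers can give. *Saa3* stayed called with any single liver left out, with log2 fold changes from −2.33 to −1.79.

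*Saa4* (ENSMUSG00000040017.8; chromosome 7, minus strand, 46727998 to 46732603) encodes the constitutive form and was the only 1 of the 10 genes that rose. It had 27.0, 40.3 and 26.9 FPKM in the controls and 77.1, 116 and 166 FPKM in the livers labelled med23Δli. Every liver of the second group lay above every control. The means were 31.4 ± 7.72 and 120 ± 44.6 FPKM (SD, n = 3 each), and the log2 difference was 1.88 ± 0.29 (SE; limma adjusted p 0.00648; exact two-sided permutation p = 0.1). *Saa4* also stayed called with any single liver left out, with log2 fold changes from 1.61 to 2.16. When the change was tested against 2-fold in place of 0, neither *Saa3* (adjusted p = 0.420, limma treat) nor *Saa4* (adjusted p = 0.462, limma treat) passed. Because one gene fell and the other rose, the *Saa3* to *Saa4* ratio changed by more than either level: its log2 value was 3.62 to 4.09 in the controls and −0.36 to 0.06 in the livers labelled med23Δli, a difference of −4.02 between the means. The ratio of *Saa1* to *Saa4* was 467, 309 and 887 in the controls and 32.1, 62.1 and 62.0 in the other group. All 9 ratios of *Saa4* to another of the 10 genes separated the groups, but so did 87.7% of the ratios of *Saa4* to any tested gene. Of the 9 ratios of *Saa3*, 5 separated the groups, against 95.1% of its ratios to any tested gene. After adjustment over the 45 pairs of the 10 genes, the smallest exact permutation p was 0.281.

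**Figure D2:**
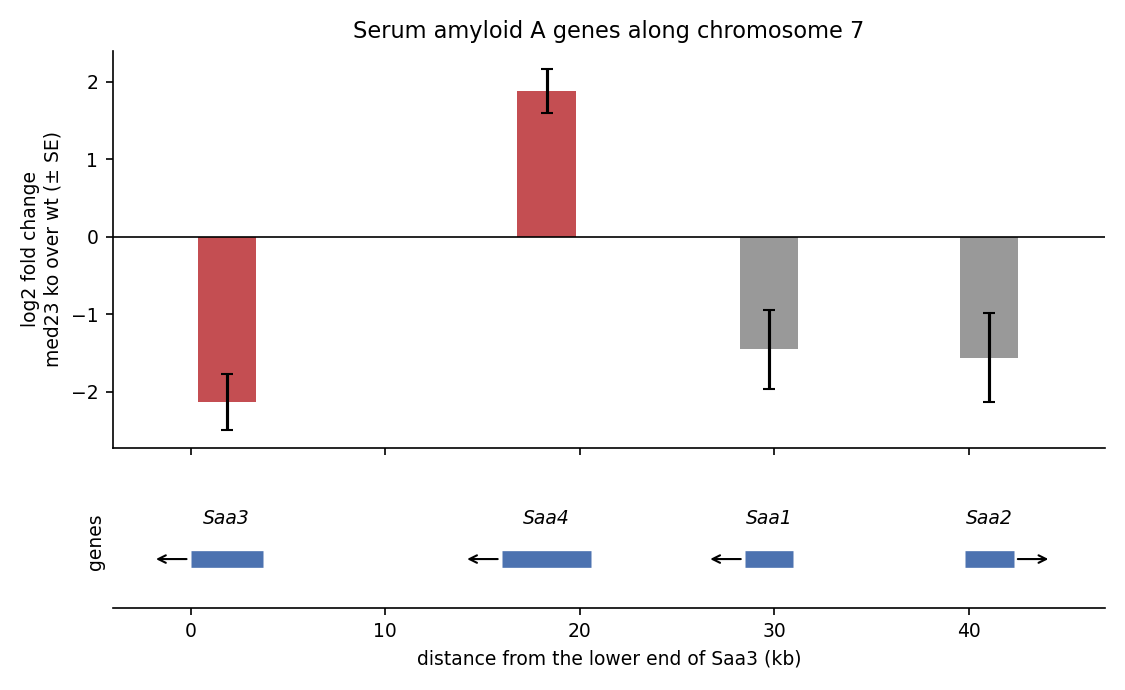
The lower panel maps the 4 serum amyloid A genes by distance (kb) from the lower end of *Saa3*, with arrows for the direction of transcription, and the upper panel gives the log2 fold change of each in the livers labelled med23Δli (bars, ± standard error from limma, n = 3 each; red where called). *Saa4* (1.88) lies between *Saa3* (−2.14) and *Saa1* (−1.45) and is the only 1 above 0.

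The gene called up and the gene called down are neighbours. In the order of the chromosome the cluster runs *Saa3*, *Saa4*, the pseudogene *Saa-ps*, *Saa1* and *Saa2*, with only the last on the plus strand. The sequences upstream of *Saa2*, *Saa3* and *Saa4* are shown because *Saa3* was called down and *Saa4* up within 1 cluster, with *Saa2* beside them as a gene that did not pass. They come from RefSeq (GRCm38.p6, the assembly of mm10), run 5′ to 3′ on the strand of the gene from base −250 to base −45 before the RefSeq start used in that table, and have in capitals every match to the C/EBP pattern TTGCNNAA or the NF-κB pattern (GGG, any 5 bases, CC) on either strand. They span chr7:46751583-46751788 for *Saa2*, chr7:46715721-46715926 for *Saa3* and chr7:46732648-46732853 for *Saa4*.
Saa2: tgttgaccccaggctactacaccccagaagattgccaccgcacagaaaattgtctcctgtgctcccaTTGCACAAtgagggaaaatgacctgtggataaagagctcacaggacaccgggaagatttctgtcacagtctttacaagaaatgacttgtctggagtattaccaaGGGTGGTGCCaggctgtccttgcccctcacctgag
Saa3: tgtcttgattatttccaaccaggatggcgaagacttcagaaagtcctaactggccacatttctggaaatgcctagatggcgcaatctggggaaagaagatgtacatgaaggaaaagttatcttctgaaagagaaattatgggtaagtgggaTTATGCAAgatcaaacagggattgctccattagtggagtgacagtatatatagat
Saa4: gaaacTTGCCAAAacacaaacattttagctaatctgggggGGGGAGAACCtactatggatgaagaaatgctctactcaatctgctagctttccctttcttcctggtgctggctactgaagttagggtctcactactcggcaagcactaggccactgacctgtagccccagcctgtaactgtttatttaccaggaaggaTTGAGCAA

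Over the 250 bases before the start, *Saa1* and *Saa2* were 94.8% identical. *Saa3* was 48.2% identical to *Saa1*, *Saa4* was 46.3% identical to *Saa1*, and *Saa3* and *Saa4* were 42.8% identical to each other. *Saa1* and *Saa2* carry the same C/EBP match (TTGCACAA, from base −182 and −183) and the same match to the NF-κB pattern (GGGTGGTGCC). *Saa3* has a C/EBP match on the minus strand (TTATGCAA, from base −99), and *Saa4* has C/EBP matches from base −245 (TTGCCAAA) and from base −52 (TTGAGCAA) and an NF-κB match from base −210 (GGGGAGAACC). Promoters of 8 of the 10 genes were in the table, those other than *Orm1* and *Hp*. The C/EBP pattern was present in 7 of these 8 and in 9.56% of 32851 promoters, and the NF-κB pattern in 4 of 8 and in 45.8%. The 8 are not independent sequences, since *Orm2* and *Orm3* were 85.5% identical, beside the 94.8% of *Saa1* and *Saa2*. Of the other patterns searched, that of STAT (TTCNNNGAA) was found in *Apcs* and in 7.02% of promoters, that of the glucocorticoid receptor (ACANNNTGT) in *Lcn2* and *Orm3* and in 5.84%, and that of ROR (TAGGTCA) in none of the 8 and in 2.23%. No match of one pattern overlapped a match of another. A match describes letters and not a bound site, and all 4 serum amyloid A genes had a C/EBP match.

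The orosomucoid genes form a second cluster on chromosome 4, in the order *Orm1* (63344560 to 63348163), *Orm3* (63356162 to 63359511) and *Orm2* (63362449 to 63365878), all on the plus strand of mm10. *Orm1* was by far the most abundant. It had 2321, 2267 and 3698 FPKM in the controls and 1098, 1770 and 1790 FPKM in the livers labelled med23Δli, without overlap. The log2 difference was −0.83 ± 0.27 (SE; 95% interval −1.44 to −0.22; limma adjusted p 0.0593). *Orm2* had 108, 97.6 and 284 FPKM in the controls and 33.8, 82.0 and 167 FPKM in the livers labelled med23Δli. The groups overlapped, since med23Δli replicate 3 was above 2 of the controls, and the log2 fold change of −0.90 had an adjusted p of 0.304 (limma). *Orm3* was between 0.758 and 2.43 FPKM in all 6 livers, and its log2 difference of −0.79 did not pass (limma adjusted p 0.216). Without control replicate 2, which had 0.809 FPKM where the other 2 controls had 2.43 and 2.36, *Orm3* was called down-regulated (log2 fold change −1.27, adjusted p = 0.0316, limma).

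The *Orm1* and *Orm2* coding sequences are 89.9% identical, and 16 of the 626 stretches of 150 bases in the *Orm1* transcript matched *Orm2* with 2 or fewer mismatches, so a small part of their reads could have been divided between them. *Orm3* had none in common with either at that limit. Summed over the 3 genes, the level went from 2927 ± 916 to 1648 ± 449 FPKM (SD, n = 3 each), or by −0.83 on the log2 scale (limma adjusted p 0.0708). *Orm1* exceeded *Orm2* by 10.7 to 32.5 times within a liver, and the groups overlapped in this ratio.

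*Hp* (ENSMUSG00000031722.10; chromosome 8, minus strand, 109575128 to 109579172) had 7543, 10486 and 8779 FPKM in the controls and 4001, 6928 and 6991 FPKM in the livers labelled med23Δli. The groups did not overlap, yet the log2 fold change was only −0.61, with a standard error of 0.25 and a limma adjusted p of 0.121. *Apcs* (ENSMUSG00000026542.6; chromosome 1, minus strand, 172893961 to 172895041) had 658, 782 and 818 FPKM in the controls and 380, 783 and 604 FPKM in the livers labelled med23Δli. Of the second group, replicate 2 lay within the controls and replicate 1 was the lowest of the 6, and the log2 fold change of −0.41 had a standard error of 0.26 (adjusted p = 0.278, limma) and was −0.12 without replicate 1.

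*Lcn2* (ENSMUSG00000026822.14; chromosome 2, minus strand, 32384633 to 32388252) varied within each group more than between them. It had 477, 1018 and 1475 FPKM in the controls and 322, 969 and 1057 FPKM in the livers labelled med23Δli, a 3.09-fold and a 3.28-fold range. The log2 fold change was −0.37 with an interval from −1.60 to 0.85 (adjusted p = 0.638, limma), so that neither a fall nor a rise could be called. Lipocalin-2 is also stored in neutrophil granules, and the neutrophil genes *S100a8* and *S100a9* varied widely too: *S100a8* had 23.9, 51.1 and 65.7 FPKM in the controls and 21.9, 54.2 and 38.4 FPKM in the livers labelled med23Δli. Replicate 1 of each group was the lowest of its group for both genes. Both overlapped between the groups, unlike the neutrophil genes *Csf3r* (log2 fold change −0.60) and *Cxcr2* (−0.74), which were lower in every liver labelled med23Δli without passing the adjusted threshold. The granule genes *Ngp*, *Camp*, *Ltf*, *Elane* and *Mpo* were below 1 FPKM in every liver. The part of neutrophils in the *Lcn2* values was not tested.

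**Figure D3:**
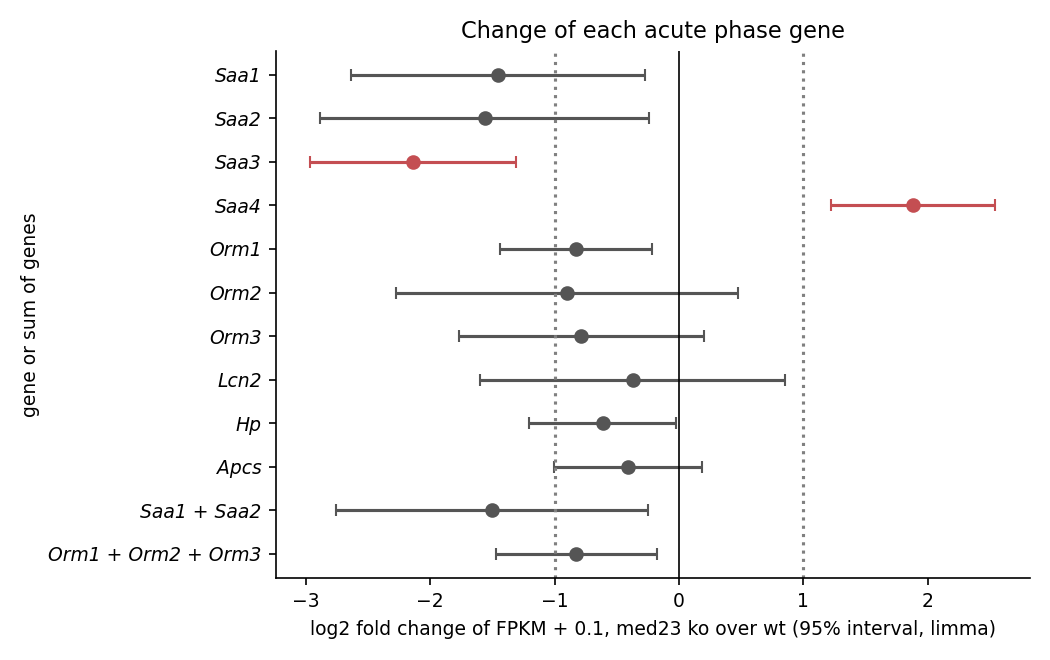
Log2 fold change of FPKM + 0.1 (x axis) in the livers labelled med23Δli over controls for each of the 10 genes and 2 sums of similar genes (y axis), with 95% intervals from limma (n = 3 each); genes called are red and dotted lines mark a 2-fold change. The intervals are not adjusted for the number of genes. Those of *Saa3* (−2.96 to −1.31) and *Saa4* (1.22 to 2.54) lie wholly beyond 2-fold, though neither gene passed the adjusted test against 2-fold. The intervals of *Orm2*, *Orm3*, *Lcn2* and *Apcs* include 0.

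The livers labelled med23Δli were not alike. In 9 of the 10 genes replicate 1 was the lowest of the 3, which was the case in 27.0% of all tested genes, and in 8 of the 10 it was the lowest of all 6 livers (10.8%). *Saa1* ranged 4.16-fold, *Saa2* 5.07-fold and *Orm2* 4.93-fold within this group, against 1.91-fold, 2.15-fold and 2.91-fold within the controls. Without med23Δli replicate 1 the log2 fold change was −0.86 for *Saa1*, −0.88 for *Saa2*, −0.60 for *Orm1*, −0.35 for *Hp*, −0.30 for *Orm2*, −0.12 for *Apcs* and 0.18 for *Lcn2*. *Saa3* (−1.79, adjusted p = 0.0291, limma) and *Saa4* (2.16, adjusted p = 0.0106, limma) kept their calls without it. Among the controls, replicate 3 was the highest in 6 of the 10 genes, and without it the log2 fold change of *Lcn2* was −0.01. The summed hepatocyte markers, most of which is *Alb*, were at 26802 FPKM in replicate 1 and at 27784 and 21956 FPKM in the other livers of its group. Taken singly, 4 of the 10 hepatocyte markers were lowest of all 6 livers in replicate 1, among them *Cps1*, *F2* and *Serpina1a*. Of the markers, *Alb*, *Ttr*, *Ahsg* and *Serpina1a* are also on the lists of acute phase genes below. The part of this in the acute phase values was not tested.

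**Figure D4:**
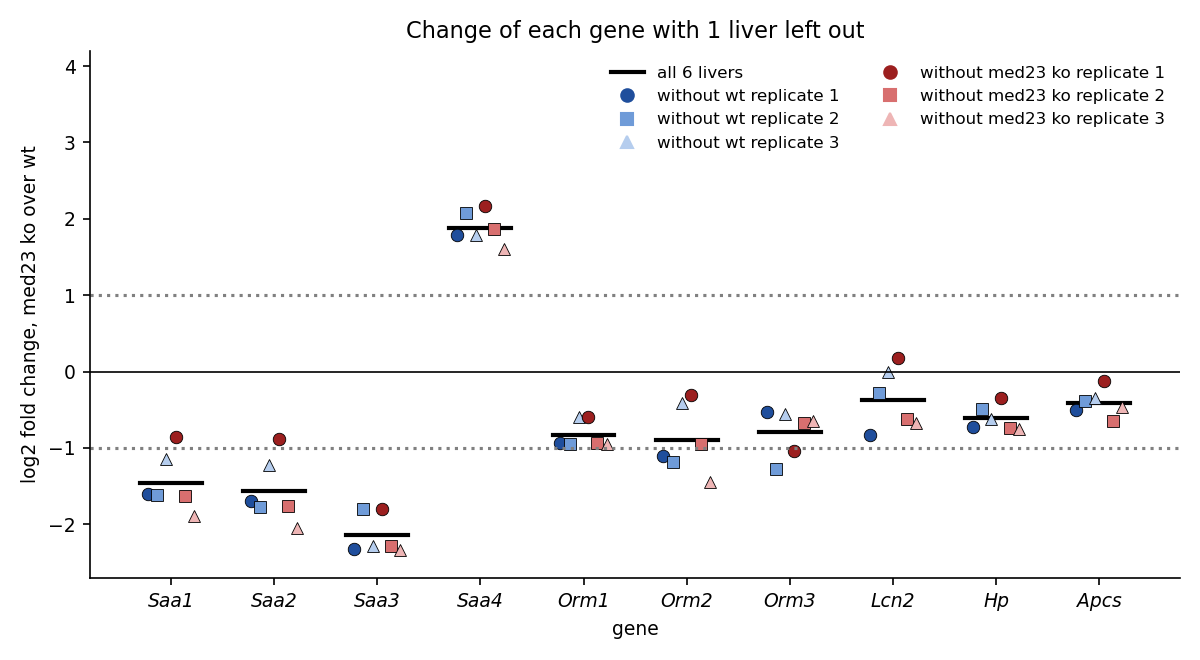
Log2 fold change (y axis) of each of the 10 genes (x axis) with all 6 livers (black bars) and with 1 liver left out at a time (markers, blue for a control and red for a liver labelled med23Δli). *Saa3* stays under −1 and *Saa4* above 1 whichever liver is left out, whereas *Saa1* and *Saa2* move to −0.86 and −0.88 without med23Δli replicate 1 and *Lcn2* crosses 0.

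Other genes known to rise in the acute phase, not all of them for plasma proteins, were divided. Of 30 genes on that list, 28 were tested, and 2 were called up and 2 down; at an adjusted p under 0.05 and any size of change, 2 were higher (11.6% of all tested genes) and 6 lower (9.48%), with a median log2 fold change of −0.16. *Steap4*, a metalloreductase, rose from 33.7 ± 4.33 to 98.5 ± 41.1 FPKM (log2 fold change 1.44, adjusted p = 0.0206, limma). *Il1rn*, which encodes the interleukin-1 receptor antagonist, rose by 1.22 on the log2 scale (limma adjusted p 0.0446). *Serpina3n*, a protease inhibitor, fell from 778 ± 335 to 293 ± 114 FPKM (log2 fold change −1.39, adjusted p = 0.0488, limma), and the metallothionein gene *Mt1* had a log2 difference of −1.33 (limma adjusted p 0.0336). *Agt* (angiotensinogen), *Serpina3m*, *Pigr* and *Serpina1a* were lower by less than 2-fold (log2 fold changes −0.93, −0.96, −0.88 and −0.70). Of these 8 genes only *Agt* kept an adjusted p under 0.05 with any single liver left out; the adjusted p of *Serpina3n* reached 0.141 without med23Δli replicate 1, and that of *Il1rn* 0.126 without med23Δli replicate 2.

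The remaining members of this list did not pass. The fibrinogen genes *Fga*, *Fgb* and *Fgg* had log2 fold changes between −0.15 and 0.19, complement *C3* had 0.39 and *Crp* 0.45, and haemopexin (*Hpx*), which clears free haem as haptoglobin clears haemoglobin, had −0.30 (adjusted p = 0.399, limma). *Itih4* had −0.76 (adjusted p = 0.0796, limma). Summed FPKM of the 29 listed genes in the table lay between 38262 and 39145 in the controls and at 24862, 38576 and 35252 in the livers labelled med23Δli, where replicate 1 was again the lowest.

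Among 13 plasma proteins known to fall in the acute phase, 1 was higher and 2 were lower at an adjusted p under 0.05, and the median log2 fold change was −0.19. *Rbp4*, the retinol carrier, was higher (log2 fold change 0.84, adjusted p = 0.0171, limma). *Serpina7*, thyroxine-binding globulin, fell by 1.53 on the log2 scale (adjusted p = 0.0147, limma), and *Igf1*, a hormone under growth hormone control, by 1.05 (adjusted p = 0.0115, limma). The limma adjusted p of *Rbp4* was 0.0720 without med23Δli replicate 2. Without med23Δli replicate 3 that of *Serpina7* was 0.0625, and without replicate 1 that of *Igf1* was 0.0542. The values of *Alb* (−0.36, limma adjusted p 0.239) and of *Apoa1*, which encodes the main protein of high-density lipoprotein (−0.57, limma adjusted p 0.116), did not pass.

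Of 12 cytokine genes, 7 were tested, and 0 passed at an adjusted p under 0.05 in limma. *Il6* was at 0.143 FPKM or less in every liver and was not tested. *Il1b* had 3.77, 3.13 and 4.15 FPKM in the controls and 6.03, 7.94 and 3.88 FPKM in the livers labelled med23Δli (log2 fold change 0.63, adjusted p = 0.116, limma), with med23Δli replicate 3 among the controls. *Il18* was higher in every liver labelled med23Δli (log2 fold change 0.92, adjusted p = 0.0505, limma) and lay at the threshold. It was called up without control replicate 2 (1.196, adjusted p = 0.0197, limma) and with libraries centred on the hepatocyte markers (1.05, adjusted p = 0.0448, limma), while with another liver left out its adjusted p rose to as much as 0.159. None of the 10 receptor genes passed, and *Il6ra*, which binds interleukin-6, and *Il6st*, which encodes gp130, had log2 fold changes of 0.21 and 0.25.

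Among the 20 genes reported here of the signalling chain and its transcription factors, 4 were higher at an adjusted p under 0.05 in limma. Over all tested genes the share was 11.6%. *Cebpb*, a C/EBP factor of the acute phase, was higher (log2 fold change 0.73, adjusted p = 0.0479, limma), as were the NF-κB subunit genes *Nfkb2* (0.65, adjusted p = 0.0481, limma) and *Relb* (0.60, adjusted p = 0.0471, limma) and the kinase gene *Tyk2* (0.54, adjusted p = 0.0219, limma). All 4 lost an adjusted p under 0.05 without at least 1 liver, with values up to 0.158 for *Nfkb2* without med23Δli replicate 2. *Stat3* (0.32) and its feedback inhibitor *Socs3* (0.16) did not pass, with adjusted p of 0.268 and 0.555 (limma).

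Receptors and binding partners of the 10 proteins were listed together with *Hmox1*, which encodes an enzyme and not a receptor or partner. Of the 14 genes 12 were tested, and 1, *Hmox1* itself, was higher and 2 were lower at an adjusted p under 0.05. *Scarb1*, the scavenger receptor for high-density lipoprotein that also binds SAA, was lower (132, 150 and 113 FPKM against 77.7, 95.9 and 71.2 FPKM; log2 fold change −0.70, adjusted p = 0.0252, limma). *Mmp9*, whose product forms a complex with lipocalin-2, fell from 2.37 to 0.941 FPKM in the mean (adjusted p = 0.0320, limma). *Hmox1*, haem oxygenase 1, was higher (log2 fold change 0.59, adjusted p = 0.0150, limma), and *Cd163*, the receptor for haptoglobin bound to haemoglobin, was at 1.81 to 4.80 FPKM with overlapping groups. Without med23Δli replicate 1 the adjusted p was 0.0972 for *Scarb1*, 0.109 for *Mmp9* and 0.0802 for *Hmox1*.

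**Figure D5:**
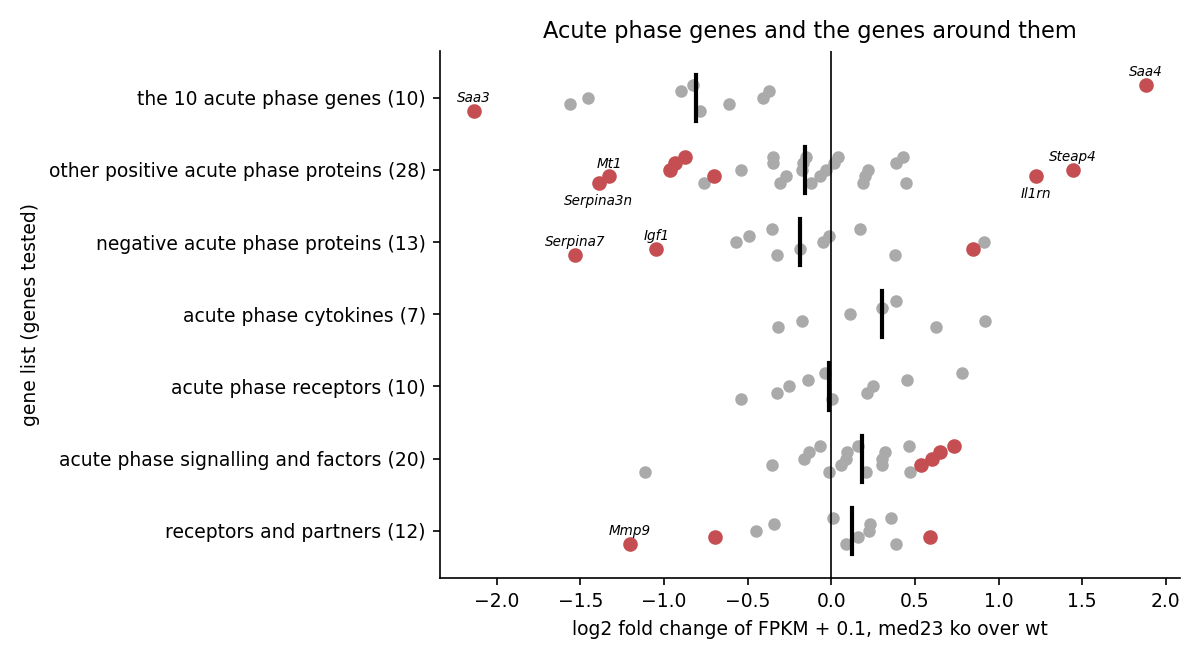
Log2 fold change (x axis) of every tested gene in the 10 acute phase genes and 6 lists around them (y axis, number of genes tested in brackets); red points have an adjusted p under 0.05 in limma, black bars are medians, and genes with p under that limit and a change beyond 2-fold are named. The 10 genes have a median of −0.81, and the medians of the other lists lie between −0.19 and 0.30.

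Markers of the other liver cells were read beside these genes, since in whole liver fewer cells of a type and less RNA per cell cannot be told apart. Of 12 macrophage markers, all tested, 0 passed at an adjusted p under 0.05 in limma, and their summed FPKM was 279 to 335 in the controls and 311 to 325 in the livers labelled med23Δli. The Kupffer cell marker *Clec4f* was at 20.99 to 25.9 FPKM in the controls and 17.1 to 18.6 FPKM in the livers labelled med23Δli, without overlap (adjusted p = 0.0818, limma). The neutrophil sum was 43.8 to 137 and 41.6 to 101 FPKM, with 5 of 12 listed genes tested and 0 past the threshold in limma. All 5 had log2 fold changes below 0, with a median of −0.60. *Csf3r*, the receptor for granulocyte colony-stimulating factor, had 2.88 to 3.14 FPKM in the controls and 1.55 to 2.52 FPKM in the livers labelled med23Δli, and the chemokine receptor gene *Cxcr2* had 1.14 to 1.61 and 0.594 to 0.961 FPKM. Neither overlapped between the groups, and their limma adjusted p were 0.0663 and 0.0779. Adipocyte genes stood out in med23Δli replicate 2 alone, where the sum was 46.9 FPKM against 4.44 to 5.31 FPKM in the other 5 livers; *Adipoq* was at 5.65 FPKM there, at 0.0907 FPKM in replicate 3 and listed at 0 in the other 4. All 6 endothelial markers were lower in the livers labelled med23Δli (sum 81.4 to 119 against 43.7 to 46.9 FPKM), each with an adjusted p under 0.05 in limma. Their log2 fold changes were −1.27 for *Clec4g*, −1.05 for *Lyve1*, −1.05 for *Stab2*, −1.03 for *Kdr*, −0.78 for *Cdh5* and −0.75 for *Pecam1*, and 4 were called. Without med23Δli replicate 3 the adjusted p of *Lyve1* was 0.0971 (limma), and 1 of the 6 was called. The adjusted p of *Cdh5* rose to 0.0571 without med23Δli replicate 1 and that of *Pecam1* to 0.0515 without replicate 2 (limma). Of 8 stellate cell markers, 1 (*Des*) was lower at an adjusted p under 0.05 (0.0497, limma), which it kept in only 1 of the 6 fits with a liver left out, and of 10 hepatocyte markers also 1 (*Serpina1a*), with overlapping sums. The part of these cells in the acute phase values was not tested.

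Profiles most like those of the 4 most variable genes were sought among all tested genes, as the root mean square difference of log2 values over the 6 livers after each gene was centred on its own mean. *Saa2* was nearest to *Saa1* (0.114), followed by *Pf4*, a platelet chemokine gene (0.285), and *Orm2* (0.363). The 3 nearest to *Saa2* were *Saa1* (0.114), *Pf4* (0.343) and *Orm2* (0.394). For *Saa3* they were *Cldn14*, a tight junction gene (0.245), the pseudogene *Zfp862-ps* (0.331) and *Kctd7* (0.340), and *Saa1* came only in place 312. For *Saa4* they were *Pdzrn3* (0.306), *Fibin* (0.328) and *Blnk* (0.334). All 3 of these were low genes, with control means of 0.386, 0.171 and 1.67 FPKM, and no other serum amyloid A gene was near.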

How the data were processed

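Liver RNA of 6 mice, 3 per group, was sequenced as paired reads of 150 bases from an unstranded TruSeq library; no other annotated gene overlaps the 10 genes. Reads were checked with FastQC, trimmed of adapters, aligned by TopHat to mm10 and summarised by Cuffdiff, per the labels and the methods; versions, annotation and options are not given in the sources used here. The table deposited by the authors lists 24346 genes with FPKM of each liver and of each group; its fold changes and p-values are their own comparison and were left aside. All 6 columns of single livers were matched to samples. The reads behind an FPKM are unknown, and no counting interval is given.

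The 11956 genes averaging 0.5 FPKM or more over the 6 livers were compared on log2(FPKM + 0.1) with limma 3.58.1 in R 4.3.3 (lmFit, eBayes with a mean-variance trend), with no covariate and Benjamini-Hochberg adjustment over all tested genes. Changes of low genes come out too small on this scale, and the folds in words are ratios of mean FPKM. For single values and ratios, exact permutation tests (two-sided) were added. On simulated data for this comparison (11956 genes, 200 changed 4-fold), 179 of the changed genes (89.5%) and 3 others were called. The 10 genes, the lists and the patterns were chosen with earlier results of these data known. Genes of the lists were named where the adjusted p was under 0.05, at most 8 per list, and cytokine, receptor and signalling genes also by their role; *Crp*, *C3*, fibrinogen genes, *Hpx*, *Itih4*, *Alb*, *Apoa1*, *Cd163*, *Csf3r*, *Cxcr2* and *Clec4f* were named for their role after their values were seen. Over all tested genes, libraries that share a replicate number did not deviate together (correlation of deviations from the group means −0.0222, −0.0459 and −0.124). Positions and transcripts are from GENCODE mouse release M 21 and upstream sequences from RefSeq, both on the assembly of mm10; no protein sequence was used here. One gene of the signalling list and 1 sequence pattern are not reported here. Python 3.11.15, pandas 2.3.3, scipy 1.17.1, Biopython 1.88 and matplotlib 3.10.9 were used for the rest.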

Additional observations from a re-analysis of the deposited data

How the results depend on the processing

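The settings varied were the pseudocount (1 or 0.01), the filter (none, or 1 FPKM), the scaling (library medians, hepatocyte markers or quantiles), the variance model (robust eBayes, or eBayes with no trend), a replicate block, a limma test for changes beyond 2-fold (treat) and each liver left out in turn. *Saa3* and *Saa4* kept their direction and their calls in all of these except treat, which called 0 genes up and 0 down of the 10 (0 higher and 0 lower at its adjusted p). With the replicate block, 3 of the 10 genes were called down and 4 were lower at an adjusted p under 0.05; *Saa1* (0.0301), *Saa2* (0.0373) and *Orm1* (0.0383) then had such a p in limma. The labels do not say that equal numbers mark a shared litter or day, and over all tested genes the numbers did not pair. Among the 10 genes, replicate 3 was the highest of both groups for *Saa1*, *Saa2*, *Orm1*, *Orm2* and *Lcn2*, and replicate 1 for *Orm3*. For *Saa3*, *Saa4*, *Hp* and *Apcs* the highest replicate differed between the groups. With the block the limma adjusted p of *Lcn2* went from 0.638 to 0.151 and that of *Orm2* from 0.304 to 0.0748. What the numbers share was not tested, so this fit carries no more than a shared number. With 1 liver left out, 1 to 2 genes were called down, 1 to 2 were lower and 1 to 1 called up or higher, the 2 being *Saa3* and *Orm3* without control replicate 2. Among the 10 genes 1 value changed its sign, that of *Lcn2* without med23Δli replicate 1 (0.18, adjusted p = 0.816, limma; the range over the 6 was −0.83 to 0.18). Quantile normalization moved *Saa2* to −1.02 and *Hp* to −0.29, against −1.56 and −0.61; the cause was not tested. Centring on the hepatocyte markers shifted the median over all tested genes from 0.02 to 0.15, gave 730 genes up and 264 down over all tested genes where the values as deposited gave 532 and 412, and left *Saa3* at −2.01 and *Saa4* at 2.01. Of these markers, *Alb*, *Ttr*, *Ahsg* and *Serpina1a* are also on the acute phase lists, so this centring is not independent of the acute phase. Over all tested genes treat called 36 up and 12 down. For *Il18* the adjusted p was under 0.05 with a pseudocount of 1 (0.0474), the filter at 1 FPKM (0.0492) and robust eBayes (0.0456), and 0.0993 with the replicate block. Counts of called genes were recomputed for every list, and 44 of 408 moved by over 1.5 times or from or to 0. Beside treat, which gave 0 for each list, the other positive acute phase proteins had 0 to 2 called up and 0 to 3 down, the negative ones 0 to 2 down, partners 0 to 1 down and endothelial markers 1 to 4 down (1 with hepatocyte centring). Cytokines and hepatocyte markers reached 1 called up, as did receptors, and neutrophil markers 1 down, each with a single liver left out (cytokines also with hepatocyte centring). Single values were followed for 48 genes outside the 10; 68 of their values lost a call, 7 gained one and 15 changed sign, all 15 of genes that had not passed. Quantile scaling turned *Fgb* (0.114), *Hpx* (0.0241) and *Alb* (0.248), and hepatocyte centring *Fgb* (0.0601) and *Med23* (0.0232). With 1 liver left out, the ranges crossed 0 for *Med23* (−0.215 to 0.0169), *Fga* (−0.354 to 0.0223), *Fgb* (−0.190 to 0.107), *Socs3* (−0.0037 to 0.309), *S100a8* (−0.696 to 0.0815) and *S100a9* (−0.686 to 0.315); the cause was not tested. The 3 livers against 3 limit every comparison here.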
